A study of Mus musculus with 6 samples.

Results

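The keratins are the intermediate filament proteins of epithelial cells, and the keratin family was followed here in the dental epithelium of the mouse first mandibular molar. Its members were all genes of the deposited expression table whose symbol is Krt followed by a number, with or without a closing letter, which leaves out the keratin-associated protein genes (Krtap) and processed copies marked -ps. This gave 54 genes of the 55487 in the table, 28 of them type I and 26 of them type II keratins. RNA-seq was performed on 6 libraries of dental epithelium taken at postnatal day 2.5 (PN2.5), of which 3 were control libraries (genotype *Wnt10a* fl/fl) and 3 were cKO libraries (genotype *K14-Cre;Wnt10a* fl/fl). Both groups carried the floxed *Wnt10a* allele on both chromosomes, and only cKO mice carried Cre recombinase, whose expression is driven by the promoter of the keratin 14 gene. The promoter of a family member therefore set which cells lost *Wnt10a*. Each library was a pool of molars, 5 according to the methods of the study and 4 according to its design text, and mice of either sex were used.

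Keratin filaments are built from pairs of unlike chains. Each type I (acidic) keratin joins a type II (basic) keratin, and neither makes a filament alone. Epithelia are recognised by the pairs they use. *Krt5* and *Krt14* are made by the basal cells of stratified epithelia, *Krt8* and *Krt18* by simple epithelia, *Krt1* and *Krt10* by the suprabasal layers of epidermis, *Krt4* and *Krt13* by those of the oral mucosa, and *Krt6a*, *Krt16* and *Krt17* by skin appendages and injured epithelium. Desmosomes and hemidesmosomes tie the filaments to neighbouring cells and to the basement membrane. In the molar, the inner enamel epithelium, which gives rise to ameloblasts, and the outer enamel epithelium meet at the cervical loop and grow into Hertwig's epithelial root sheath.

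The deposited values are TPM, the abundance of each gene's transcripts relative to all transcripts of the library. They are scaled by transcript length, so that levels can be compared between genes, but keep no sequencing depth. *Wnt10a* was below the control range in all 3 cKO libraries, at 46.5% of the control mean. All 9 markers of dental epithelium were above 0 in every library, with *Amelx*, the gene of the enamel protein amelogenin, at 8.65% to 20.6% of a library's TPM. The lowest of these shares was that of cKO replicate 2, against 16.5% or more in the other 5 libraries. The summed TPM of the 9 markers, most of it *Amelx*, was 200851 to 240043 in the control libraries and 96925 to 209413 in the cKO libraries. Only 1 of the 9, *Ambn*, separated the groups. It was at 31405 to 33061 TPM in control against 8562 to 26263 TPM in cKO. In the limma test described below its unadjusted p was 0.0766. Of all genes in that test, 6.13% lay lower in cKO without overlap. The tissue was not free of other cells. The summed TPM of 8 mesenchyme markers was 3500 to 6930 in the control libraries and 4453 to 5004 in the cKO libraries, that of 5 erythroid markers was 1325 to 1978 and 1161 to 1282, and that of 5 endothelial markers was 60.2 to 95.5 and 47.7 to 67.3. Ribosomal RNA genes summed to 1363 to 3283 TPM in the control libraries and to 8400 to 16291 TPM in the cKO libraries. The part of these markers and of ribosomal RNA in the differences between the groups was not tested. In bulk tissue, fewer cells of a type cannot be told apart from less RNA per cell.

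A single basal-type pair and *Krt17* made up almost the whole family. *Krt5*, *Krt14* and *Krt17* together held 96.4% to 96.7% of the summed keratin TPM in every library, and all other keratins summed to only 188 to 288 TPM. Of the 54 keratins, 50 were above 0 in at least 1 library and 34 in all 6, and *Krt31*, *Krt32*, *Krt34* and *Krt40*, all of them hair shaft keratins of type I, were listed at 0 throughout. Means of 10 TPM or more were reached by 10 keratins and means of 1 to 10 TPM by another 9. The remaining 35 had means below 1 TPM, and none of them exceeded 1.87 TPM in any library.

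The levels fell in steps. *Krt5* and *Krt14* exchanged ranks 1 and 2 between libraries, with *Krt5* the higher in 3 of 6, whereas *Krt17* held rank 3 and *Krt10* rank 8 in every library. Among neighbours in the order of the 19 keratins with a mean of at least 1 TPM, only *Krt14* and *Krt17*, and *Krt17* and *Krt80*, had ranges that did not touch over the 6 libraries. All other neighbouring ranges overlapped. Within single libraries, however, *Krt15* was above *Krt7*, *Krt6a* above *Krt10* and *Krt8* above *Krt75* in 6 of 6.

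**Figure D1:**
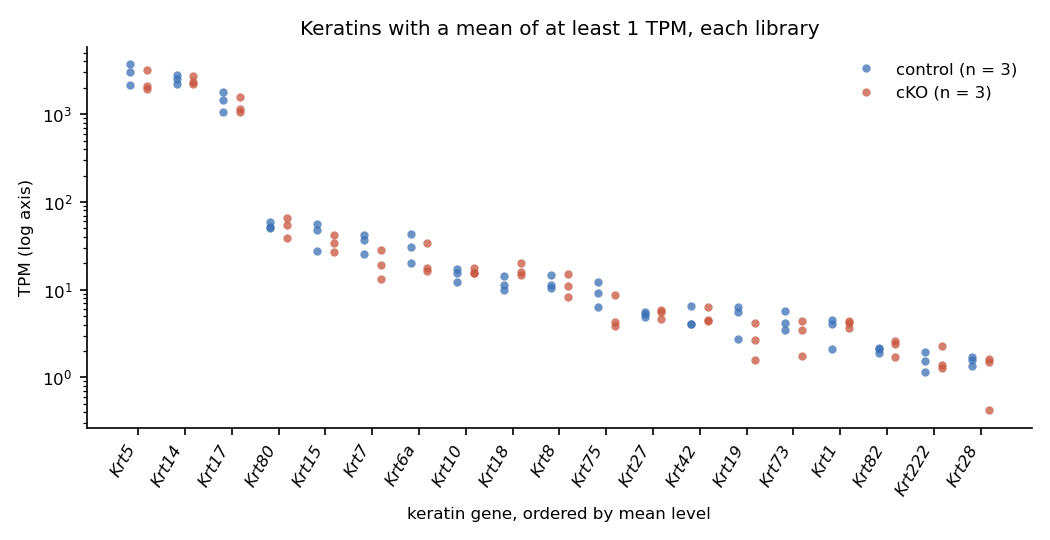
TPM on a log axis of the 19 keratins with a mean of at least 1 TPM, ordered by mean, with 1 point for each control library (blue) and each cKO library (red). *Krt5*, *Krt14* and *Krt17* lie at 1054 TPM or more in all 6 libraries, no other keratin exceeds 66.2 TPM, and the 2 groups overlap for every gene except *Krt18*.

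All keratins together summed to 7283, 5597 and 8570 TPM for control replicates 1, 2 and 3, as against 5507, 5693 and 7808 TPM in the cKO replicates of those numbers. The groups overlapped, and within each group the highest sum was that of replicate 3. The mean of cKO was 88.6% of that of control (6336 ± 1278 TPM in cKO against 7150 ± 1491 TPM in control, SD, n = 3 each). On the log2 scale this ratio of means is -0.17, and without cKO replicate 2 it was -0.10. The types contributed unequally. Type I keratins exceeded type II keratins in all 6 libraries, by ratios of summed TPM of 1.26, 1.45 and 1.20 in control against 1.69, 1.56 and 1.30 in cKO. The mean ratio was 1.30 ± 0.13 in control and 1.52 ± 0.20 in cKO (SD, n = 3 each), and the ranges overlapped.

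**Figure D2:**
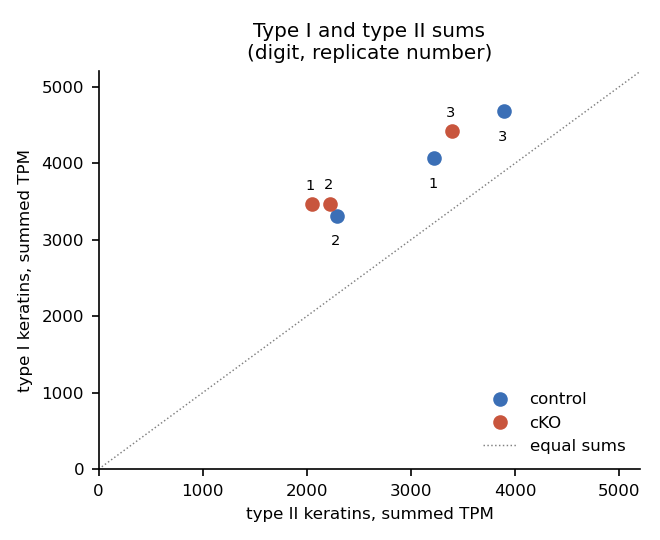
Summed TPM of the type I keratins against that of the type II keratins in each library, with the replicate number beside each point and a dotted line where both sums are equal. All 6 points lie above the line, with type II sums of 2044 to 3894 TPM and type I sums of 3311 to 4676 TPM.

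The comparison of cKO with control asked whether loss of epithelial *Wnt10a* moved any keratin. The test was limma on log2(TPM + 1), a scale on which the change of low genes is understated, fitted to the 13719 genes whose mean over the libraries reached 1 TPM. Of the 54 keratins, 19 reached that mean and were tested. None had an adjusted p below 0.05 (limma, Benjamini-Hochberg over all genes tested, adjusted p = 1.00 for each), against 0.0146% of all genes tested. *Wnt10a*, the deleted gene, did not reach that threshold either (limma unadjusted p = 0.000653, adjusted p = 0.747). At an unadjusted p below 0.05, 1 of the 19 was lower in cKO, *Krt7*, against 2.47% of all genes tested, and 0 were higher, against 1.55%. No tested keratin had all cKO libraries below all control libraries, which was the case for 6.13% of all genes tested, and 1, *Krt18*, had all of them above, against 3.51%. Differences were below 0 for 12 keratins and above 0 for 7, with a median log2 fold change of -0.11 beside -0.07 over all genes tested. The median was -0.01 for the 10 tested type I keratins and -0.30 for the 9 tested type II keratins. The p-values measure the spread between these pools of molars.

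**Figure D3:**
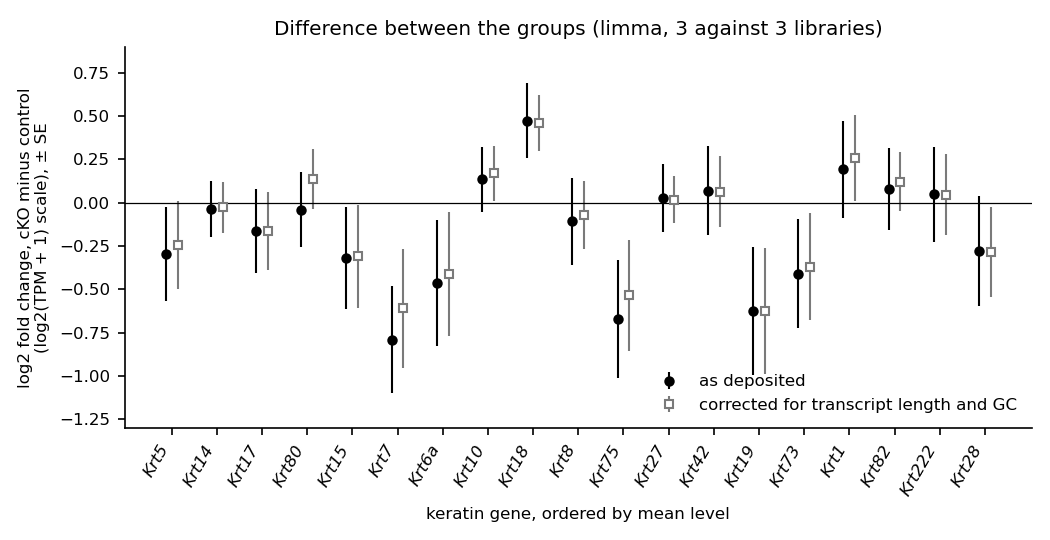
Log2 fold change of cKO against control with its standard error for each tested keratin, on the log2(TPM + 1) scale, as deposited (filled circles) and with length and GC content of the transcript corrected for (open squares). *Krt7* lies lowest at -0.79 and *Krt18* highest at 0.48, and the correction turned the sign only for *Krt80*.

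The basal keratins were the most abundant and showed no difference beyond the spread between libraries. *Krt5*, the type II chain of basal cells, was at 3063, 2161 and 3713 TPM in control against 1945, 2111 and 3224 TPM in cKO. The cKO replicates 1 and 2 lay just below all control libraries and replicate 3 lay among them, and the log2 fold change was -0.30 (SE 0.27, limma unadjusted p = 0.308). *Krt14*, its type I partner, measured 2518, 2190 and 2773 TPM in control against 2219, 2324 and 2747 TPM in cKO. These ranges were nearly the same, and the log2 fold change was -0.04 (SE 0.16, limma unadjusted p = 0.826). *Krt15*, a type I chain also found in basal cells and in hair follicle stem cells, was far lower, at 48.5, 27.8 and 56.0 TPM in control against 41.9, 26.6 and 34.3 TPM in cKO (log2 fold change -0.32, SE 0.30, limma unadjusted p = 0.318). The ratio of *Krt5* to *Krt14* was 0.877 to 1.34 over the 6 libraries and overlapped between the groups.

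*Krt17* and *Krt6a* represent the keratins of appendages and stressed epithelium. *Krt17*, a type I keratin, was at 1442, 1054 and 1797 TPM in control against 1155, 1067 and 1583 TPM in cKO. The groups overlapped, with replicate 3 highest in each (log2 fold change -0.16, SE 0.24, limma unadjusted p = 0.528). *Krt6a*, a type II keratin that can pair with it, had 31.0, 20.1 and 43.1 TPM in control against 17.7, 16.2 and 34.4 TPM in cKO. The cKO replicates 1 and 2 lay below all control libraries and replicate 3 among them (log2 fold change -0.46, SE 0.36, limma unadjusted p = 0.243). The ratio of *Krt6a* to *Krt17* was 0.0152 to 0.0240 over the 6 libraries. *Krt16*, the usual type I partner of *Krt6a*, did not exceed 1.09 TPM in any library.

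The *Krt6a* level depends on how reads were shared with *Krt6b*, its neighbour on chromosome 15. Their coding sequences were 97.6% identical in GENCODE M21, with 40 differing alignment columns and a longest identical run of 280 bases, and 49.5% of all stretches of 50 bases in the *Krt6a* transcript also occurred in another gene. The untranslated parts of the transcripts were not aligned, and within the coding sequence only differing positions tell both apart. The stretch of 60 coding bases with the most differences, counted from 1 at the start codon (bases 817 to 876 of both), is printed with the 10 differing bases in capitals.
Krt6a: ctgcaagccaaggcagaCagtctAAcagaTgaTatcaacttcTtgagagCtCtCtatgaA
Krt6b: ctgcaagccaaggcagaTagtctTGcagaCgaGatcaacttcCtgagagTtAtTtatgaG
As deposited, *Krt6b* was at 0.23 to 1.13 TPM and *Krt6a* was 17.8 to 76.8 times higher in the same library. Other members have close copies too. Of the 50-base stretches, 37.6% were shared in *Krt16* (first with the pseudogene *Gm11597*, which was listed at 0 in every library, and with *Krt14*), 14.4% in *Krt14*, 8.52% in *Krt5* and 3.99% in *Krt17*. *Krt8* shared 26.9%, all with the processed copy *Krt8-ps*, listed at 0 in every library. *Krt7*, *Krt10*, *Krt15*, *Krt18* and *Krt75* shared between 0% and 0.721%.

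The keratins of simple epithelia held both the lowest and the highest difference of the family. *Krt7*, a type II chain of glandular and ductal epithelia, was at 36.8, 25.3 and 42.5 TPM in control against 19.0, 13.3 and 28.2 TPM in cKO. The groups overlapped, because cKO replicate 3 lay above control replicate 2. The mean of cKO was 57.8% of that of control, with a log2 fold change of -0.79 (SE 0.31, limma unadjusted p = 0.0367, adjusted p = 1.00). The log2 fold change stayed below 0 when any library was left out. The unadjusted p rose to between 0.0967 and 0.122 when control replicate 1, control replicate 3, cKO replicate 1 or cKO replicate 2 was left out (log2 fold change -0.54 without the last of these), and was 0.0232 without control replicate 2 and 0.0109 without cKO replicate 3 (limma). Once transcript length and GC content were corrected for, the log2 fold change was -0.61 (limma unadjusted p = 0.121).

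*Krt18*, the type I chain of the first keratin pair to appear in the embryo, had 14.5, 9.84 and 11.4 TPM in control against 14.7, 20.2 and 15.9 TPM in cKO. All cKO libraries lay above all control libraries, though cKO replicate 1 only just cleared control replicate 1, and a two-sided exact permutation test gave p = 0.1, which is the lowest it can give with 3 libraries a group. The mean of cKO was 142% of that of control, with a log2 fold change of 0.48 (SE 0.21, limma unadjusted p = 0.0613). The log2 fold change was 0.35 without cKO replicate 2, the library with the lowest *Amelx* share (limma unadjusted p = 0.191). Without control replicate 2 it was 0.36 (limma unadjusted p = 0.167), and without control replicate 1 it was 0.61 (limma unadjusted p = 0.0439). With any other library left out it was 0.45 to 0.57 (limma unadjusted p = 0.0662 to 0.121). With length and GC content corrected for it was 0.46 (limma unadjusted p = 0.0239, adjusted p = 1.00).

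*Krt8*, the type II partner of *Krt18*, was at 11.2, 10.6 and 14.5 TPM in control against 8.19, 11.0 and 14.9 TPM in cKO, with overlapping groups (log2 fold change -0.11, SE 0.25, limma unadjusted p = 0.684). The ratio of *Krt8* to *Krt18* was 0.772, 1.07 and 1.27 in control against 0.559, 0.542 and 0.941 in cKO, and the ranges overlapped. *Krt19*, a type I keratin without a tail domain, was at 6.38, 2.71 and 5.51 TPM in control against 4.20, 1.56 and 2.64 TPM in cKO. The groups overlapped (log2 fold change -0.63, SE 0.37, limma unadjusted p = 0.135). *Krt20*, an intestinal and urothelial keratin, did not exceed 0.07 TPM.

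The suprabasal keratins were present at low levels and unevenly. *Krt10*, the type I chain of the upper epidermis, measured 17.0, 12.2 and 15.4 TPM in control against 15.7, 15.6 and 17.7 TPM in cKO. The ranges overlapped (log2 fold change 0.14, SE 0.19, limma unadjusted p = 0.491). *Krt1*, its type II partner, was lower in every library, at 2.08 to 4.56 TPM. The other 4 epidermal members, *Krt2*, *Krt9*, *Krt77* and *Krt78*, did not exceed 0.30 TPM in any library.

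The suprabasal keratins of mucosa were close to 0. *Krt13*, the highest of the 3, was at 0.19, 0.26 and 0 TPM in control against 0, 0.50 and 0 TPM in cKO, and *Krt4*, its partner in oral mucosa, was at 0.08, 0.03 and 0.05 TPM in control but listed at 0 in every cKO library. *Krt12* of the cornea was likewise at 0.03, 0.11 and 0.04 TPM in control but listed at 0 in every cKO library. Their means were below the 1 TPM needed for the test, and no fold is given against values of 0. Of 12 markers of keratinising oral or skin epithelium, 3 (*Flg*, *Rptn* and *Sprr3*) were listed at 0 throughout, and the summed level of all 12 was 43.9 to 53.2 TPM in control against 42.3 to 54.9 TPM in cKO.

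Keratins of the hair follicle were mostly near 0. Of the 9 keratins of the follicle sheaths, 4 had a mean of at least 1 TPM. *Krt75*, the type II chain of the companion layer, led them with 9.19, 6.34 and 12.2 TPM in control against 3.81, 4.29 and 8.58 TPM in cKO. Replicates 1 and 2 of cKO lay below every control library and replicate 3 above control replicate 2 (log2 fold change -0.67, SE 0.34, limma unadjusted p = 0.0889). The inner root sheath keratins *Krt27*, *Krt73* and *Krt28* had means of 5.29, 3.83 and 1.36 TPM and log2 fold changes of 0.03, -0.41 and -0.28 (SE 0.20, 0.31 and 0.32). The other 5 did not exceed 0.17 TPM, and 1 of them, *Krt74*, is annotated in GENCODE M21 as a transcribed unitary pseudogene.

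Of the 15 hair shaft keratins, only *Krt82*, a type II keratin of the hair cuticle, had a mean above 1 TPM, at 2.10, 1.90 and 2.15 TPM in control against 1.71, 2.62 and 2.39 TPM in cKO. *Krt36* and *Krt84* followed with means of 0.747 and 0.585 TPM, and all others had means of 0.193 TPM or less. Of the 58 Krtap genes, whose products crosslink hair keratins, 51 were listed at 0 in every library and none exceeded 2.24 TPM. Only 1 of them reached the mean of 1 TPM needed for the test. It was higher in cKO without overlap (log2 fold change 0.82, limma unadjusted p = 0.0216), but its adjusted p was not below 0.05. Of all genes tested, 1.55% were higher at an unadjusted p below 0.05 and 3.51% lay higher without overlap.

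Among the 8 keratins of other or unsettled sites, *Krt80*, a type II keratin found in many epithelia, came next after *Krt17* by mean level. Its level was 59.0, 49.9 and 51.9 TPM in control against 38.9, 54.4 and 66.2 TPM in cKO, and the cKO libraries lay both below and above the control range (log2 fold change -0.04, SE 0.22, limma unadjusted p = 0.857). *Krt42* had a mean of 4.98 TPM, *Krt222* of 1.60 TPM and *Krt79* of 0.868 TPM. *Krt90* was at 0.72, 0.63 and 0.49 TPM in control against 0.39, 0.46 and 0.46 TPM in cKO. These groups did not overlap, but its mean of 0.525 TPM kept it out of the test, as was so for *Krt4* and *Krt12*.

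The 54 genes lie in 2 clusters. In GENCODE M21 (GRCm38), 27 keratins, all of type I and all on the minus strand, lie at chr11:99232761-100269871, a span of 1.04 Mb. The other 27, the 26 type II genes and *Krt18*, lie at chr15:101347444-102032027, a span of 0.685 Mb. *Krt18* is thus the only type I gene outside the chromosome 11 cluster, and it lies 23697 bases from its partner *Krt8*. Each cluster held genes at very different levels side by side. *Krt16* (mean 0.502 TPM) lies 7314 bases from *Krt17* (1350 TPM), a ratio of 2690. *Krt9* (0.195 TPM) lies 9915 bases from *Krt14* (2462 TPM), a ratio of 12624, and *Krt71* (0.127 TPM) lies 21050 bases from *Krt5* (2703 TPM), a ratio of 21337. Where copies share sequence, as *Krt14* and *Krt16* do, such ratios also depend on how reads were assigned.

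**Figure D4:**
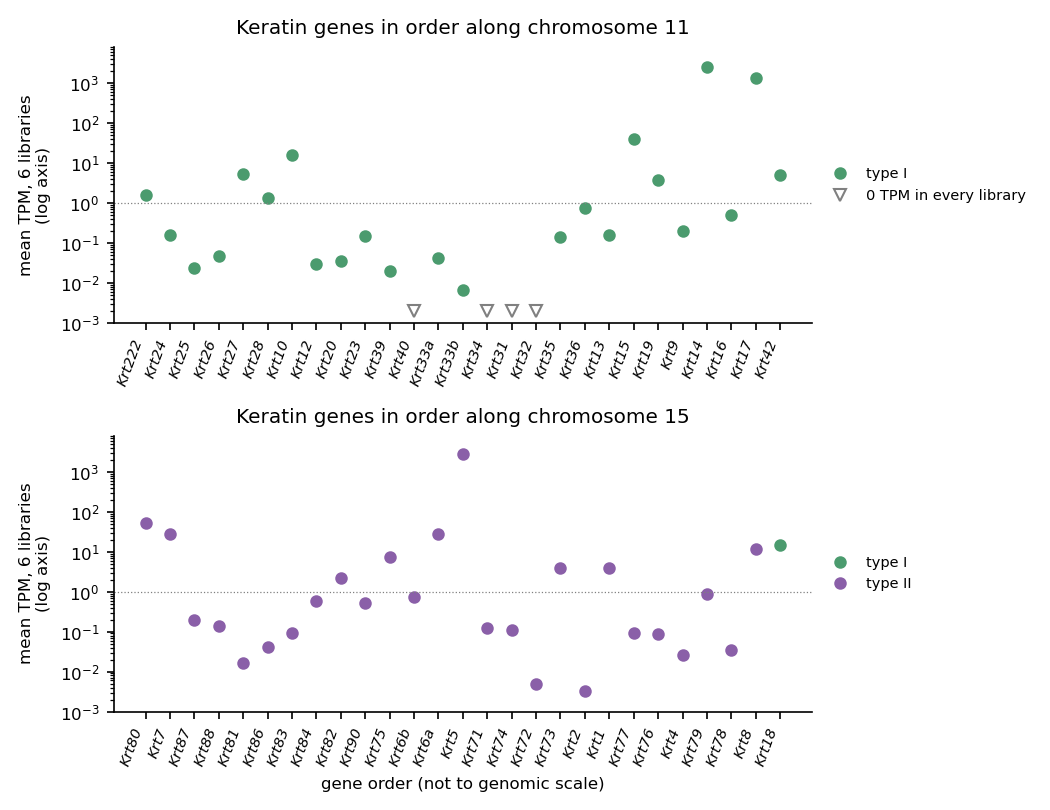
Mean TPM over the 6 libraries, on a log axis, of the keratin genes in their order along chromosome 11 and chromosome 15, coloured by type, with open triangles for genes at 0 TPM in every library and a dotted line at 1 TPM. Genes above the line stand next to genes far below it as well as next to runs of low genes, with 9 genes of the chromosome 11 cluster and 10 of the chromosome 15 cluster above the line.

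The letters ATAAA, which form part of the TATA box that positions transcription, stood before both high and low members among the promoters counted. Promoters were taken from RefSeq on GRCm38.p6 for 36 keratins, and 34 promoters started within 100 bases of a GENCODE coding transcript. They were searched in the 50 bases before the start. On the strand of the gene they occurred in 23 of the 34 keratin promoters (67.6%) and in 6.57% of all 32851 promoters in the table. On the other strand, read as TTTAT, they occurred in 0 of the 34 and in 4.09% of all promoters. The longer TATAAA, each of which contains ATAAA, was in 15 of the 34 (44.1%) and in 2.63% of all promoters. Of the 23, 19 had the first A between 25 and 33 bases before the start, as had 983 of the 2159 promoters with ATAAA among all promoters. The motif was chosen after keratin promoters had been looked at. It was in 8 of 10 promoters of keratins with a mean of at least 1 TPM and in 15 of 24 of those below 1 TPM, so these letters stood before genes of either level. The 10 cover only part of the 19 keratins at that level. After *Krt5*, the highest of them was *Krt7*, with a mean of 27.5 TPM. The promoter listed for *Krt14* started 1518 bases from a GENCODE start and was not counted. For *Krt17*, *Krt80*, *Krt15* and *Krt6a* no promoter was listed. The 50 bases before the start are printed for 4 keratins above 1 TPM and then for 4 below it, ATAAA in capitals, all from the minus strand.
Krt5 (2703 TPM, chr15:101712906-101712955): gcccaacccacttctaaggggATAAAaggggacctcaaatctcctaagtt
Krt10 (15.6 TPM, chr11:99389365-99389414): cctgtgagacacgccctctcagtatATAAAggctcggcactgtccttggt
Krt75 (7.39 TPM, chr15:101573905-101573954): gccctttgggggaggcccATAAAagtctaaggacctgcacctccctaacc
Krt73 (3.83 TPM, chr15:101802361-101802410): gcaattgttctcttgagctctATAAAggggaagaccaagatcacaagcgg
Krt13 (0.158 TPM, chr11:100121567-100121616): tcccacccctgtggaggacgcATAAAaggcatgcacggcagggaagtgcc
Krt76 (0.0867 TPM, chr15:101892921-101892970): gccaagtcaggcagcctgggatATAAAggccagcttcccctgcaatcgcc
Krt12 (0.0300 TPM, chr11:99422260-99422309): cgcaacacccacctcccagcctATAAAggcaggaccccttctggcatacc
Krt40 (0 TPM, chr11:99543221-99543270): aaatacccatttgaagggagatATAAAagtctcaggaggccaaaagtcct

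*Krt18* and *Krt42* were the 2 keratins above 1 TPM counted here whose window did not hold the letters. A match or its absence describes these 50 bases only.

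Relative to the summed keratins, whose level is set mainly by *Krt5*, *Krt14* and *Krt17*, 4 keratins separated the groups. The measure was chosen after the values had been seen and has no test. *Krt7* held 0.506%, 0.451% and 0.496% of the keratin TPM in control against 0.345%, 0.233% and 0.361% in cKO. *Krt75* held 0.126%, 0.113% and 0.142% in control against 0.0692%, 0.0754% and 0.110% in cKO. For both, all cKO libraries were below all control libraries, 2 of 19 keratins against 1.45% of all genes tested when scaled in the same way. *Krt18* held 0.199%, 0.176% and 0.133% in control against 0.266%, 0.355% and 0.203% in cKO. *Krt42* held 0.0555%, 0.0722% and 0.0756% in control against 0.0815%, 0.0776% and 0.0818% in cKO. For these, all cKO libraries were above all control libraries, 2 of 19 against 4.39% of all genes tested. The margins of *Krt75* and *Krt18* were small beside the ranges within each group. That of *Krt42* was small beside its control range and narrower than its cKO range. The ratio of *Krt7* to *Krt5* was 0.0120, 0.0117 and 0.0115 in control against 0.00977, 0.00628 and 0.00874 in cKO. All cKO ratios lay below the narrow control range. The groups also separated for *Krt75* to *Krt5* and *Krt75* to *Krt6a*, lower in cKO, and for *Krt18* to *Krt14*, higher in cKO. They overlapped for *Krt5* to *Krt14*, *Krt17* to *Krt14*, *Krt8* to *Krt18*, and *Krt6a* to each of *Krt17*, *Krt5* and *Krt6b*. These ratios have no test, and no share of all genes was computed for levels relative to a single keratin.

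**Figure D5:**
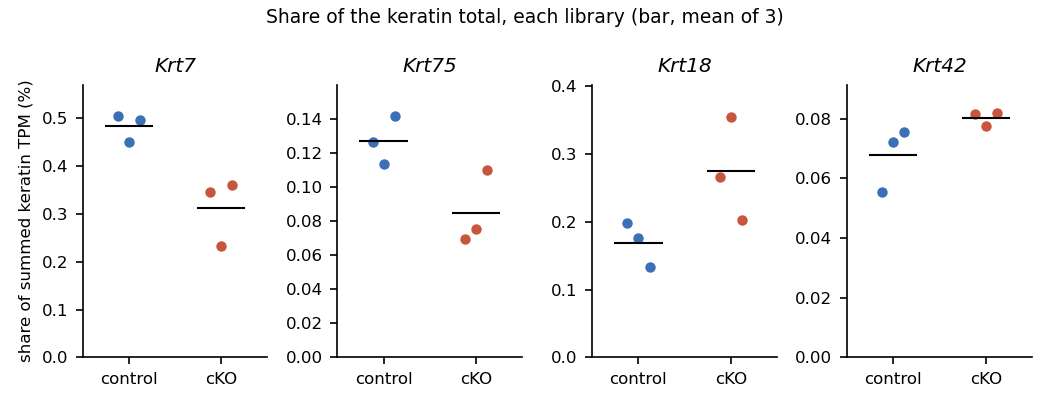
Share of the summed keratin TPM held by *Krt7*, *Krt75*, *Krt18* and *Krt42* in each control library (blue) and cKO library (red), with a bar at the mean of 3 and an axis from 0 for each gene. The groups do not overlap, lower in cKO for *Krt7* (0.233% to 0.361% against 0.451% to 0.506%) and *Krt75*, higher for *Krt18* and *Krt42*.

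Transcript length moved with the difference between the groups. Across 12188 protein-coding genes tested, the Spearman correlation of length with log2 fold change was -0.51, a description over genes of the same 6 libraries, and across the 19 keratins it was -0.34. *Krt7* and *Krt75*, of 4094 and 3266 bases, are among the longest keratin transcripts, and *Krt18*, of 1437 bases, is the shortest tested. After correction for length and GC content their log2 fold changes were -0.61, -0.53 and 0.46. *Krt80*, of 3919 bases, moved from -0.04 to 0.14.

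Transcript levels were also followed for genes whose proteins hold keratin filaments, and no protein was measured here. Of 17 genes for anchors and organisers of keratin filaments, 16 were tested, and all 16 had a log2 fold change below 0, as had 60.3% of all genes tested, with a median of -0.42 beside -0.07 over all genes tested. At an unadjusted p below 0.05, 6 of the 16 were lower and 0 higher in cKO, against 2.47% and 1.55% of all genes tested. All cKO libraries lay below all control libraries for 8 of the 16, against 6.13% of all genes tested, but none had an adjusted p below 0.05 (limma). *Plec*, the gene of plectin, which links filaments to hemidesmosomes, was at 19.4, 22.7 and 18.2 TPM in control against 7.76, 9.45 and 15.6 TPM in cKO (log2 fold change -0.87, SE 0.26, limma unadjusted p = 0.0129). The groups did not overlap, and cKO replicate 3 was closest to control. *Fbf1*, which encodes a keratin-binding protein of junctions and centrioles, was at 15.5, 23.2 and 15.8 TPM in control against 9.82, 12.6 and 10.9 TPM in cKO (log2 fold change -0.65, SE 0.22, limma unadjusted p = 0.0196).

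*Col17a1*, the hemidesmosome collagen, was at 162, 145 and 138 TPM in control against 95.7, 109 and 123 TPM in cKO (log2 fold change -0.44, SE 0.16, limma unadjusted p = 0.0249). *Pkp1*, a desmosome plaque protein, was at 140, 128 and 142 TPM in control against 72.0, 85.3 and 122 TPM in cKO (log2 fold change -0.59, SE 0.21, limma unadjusted p = 0.0260). In both, cKO replicate 3 was again the highest of its group. These are long transcripts, with a median of 5420 bases against 2094 for the tested keratins and 2918 for all genes tested. After correction for length and GC content the median log2 fold change of the 16 was -0.13, and 12 were below 0, against 49.8% of all genes corrected. *Fbf1* was then the 1 gene of the 16 lower at an unadjusted p below 0.05 (limma unadjusted p = 0.0478), against 2.16% of all genes corrected.

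The lists of other intermediate filaments, transcription factors of keratin genes and cornification held no gene at an unadjusted p below 0.05 in the values as deposited. Over all genes tested, 2.47% were lower and 1.55% higher at that threshold, and none in lists this short is close to those shares. Of 15 genes of other intermediate filaments, 7 were tested and 0 had an unadjusted p below 0.05 (limma) in either direction. *Vim*, the mesenchymal filament, was at 349, 197 and 232 TPM in control against 195, 258 and 208 TPM in cKO, and *Lmnb1*, a nuclear lamin, was at 164, 162 and 135 TPM in control against 131, 176 and 160 TPM in cKO. Both overlapped between the groups, with a median log2 fold change of -0.15 for the 7.

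Of 11 genes for transcription factors that act on keratin genes, 9 were tested, with a median log2 fold change of 0.14. At an unadjusted p below 0.05 (limma), 0 were lower and 0 higher, against 2.47% and 1.55% of all genes tested. *Sp6*, a factor of ameloblasts, was at 443, 457 and 524 TPM in control against 335, 445 and 624 TPM in cKO. *Trp63*, which maintains stratified epithelium, was at 134, 145 and 86.2 TPM in control against 90.4, 105 and 84.9 TPM in cKO (log2 fold change -0.35, SE 0.22, limma unadjusted p = 0.161). Both ranges overlapped between the groups.

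Of 18 genes of cornification, the hardening of the outer epidermis, 7 were tested and 3 were listed at 0 throughout. At an unadjusted p below 0.05 (limma), 0 of the 7 were lower and 0 higher, against 2.47% and 1.55% of all genes tested. *Dmkn* was at 22.2, 23.3 and 22.9 TPM in control against 16.9, 16.9 and 25.4 TPM in cKO, and *Sbsn*, another secreted epidermal protein, ranged from 15.0 to 24.3 TPM over the 6 libraries. Their groups overlapped. *Calml3*, a calmodulin-like protein of epithelium, was at 2.15, 1.53 and 3.34 TPM in control against 1.03, 1.15 and 1.41 TPM in cKO, without overlap (log2 fold change -0.57, SE 0.29, limma unadjusted p = 0.0839). It was the 1 gene of the 7 that lay lower without overlap, against 6.13% of all genes tested. *Dsg1a*, a desmosomal cadherin, overlapped between the groups, at 17.9, 23.3 and 8.88 TPM in control against 9.01, 12.9 and 7.40 TPM in cKO (log2 fold change -0.65, SE 0.36, limma unadjusted p = 0.116). With length and GC content corrected for, *Dsg1a* was at -0.49 (limma unadjusted p = 0.00479, adjusted p = 0.930). It was then the 1 gene of the 7 lower at an unadjusted p below 0.05, against 2.16% of all genes corrected.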

How the data were processed

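Dental epithelium of first mandibular molars was sequenced in 3 control and 3 cKO libraries, grouped by the sample labels. The deposited values are TPM. To make them, the authors used SeqPrep and Sickle for trimming, HISAT2 for alignment and RSEM for abundance, and the submitters' notes also name StringTie. The methods name FPKM, but each library sums to 983952 to 993946. Genome build and annotation are not given in the sources used here. In GENCODE M21, 99.4% of gene identifiers were found. Depth is unknown.

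The test was limma 3.58.1 (R 4.3.3) on log2(TPM + 1), by lmFit and eBayes with a mean-variance trend, over all 13719 genes whose mean reached 1 TPM, with Benjamini-Hochberg adjustment. It was tested on simulated data. Length and GC content, of the longest coding transcript, were corrected with natural splines of 4 degrees of freedom each. Keratins with a mean of 10 TPM or more, tested ones with an unadjusted p below 0.05 and no overlap, and the highest of each class were to be given in full. *Krt19*, *Krt90*, *Krt4*, *Krt42*, *Krt8-ps*, *Gm11597*, *Calml3* and *Dsg1a* were added after their values were seen. Of other lists, up to 4 genes with an unadjusted p below 0.05 and no overlap, or else the 2 highest, were named. The members and gene lists were chosen with earlier results of these data known.

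Alternatives were a pseudocount of 0.1, no filter, quantile normalization, TPM recomputed over protein-coding genes other than *Amelx* and *Ambn*, no trend, the replicate block, the length and GC correction, and leaving out each library.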

Additional observations from a re-analysis of the deposited data

How the results depend on the processing

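The number of libraries and the unknown depth limit what can be seen, and most keratins were too low to test. No keratin had an adjusted p below 0.05 under any alternative, the lowest adjusted p being 0.440. The count of keratins lower in cKO at an unadjusted p below 0.05, 1 as reported, was 2 when low genes were kept (*Krt7* and *Krt4*), 0 under quantile normalization, 0 with the length and GC correction and 0 to 3 when 1 library was left out. With the correction, 2.16% of all genes corrected were lower at that threshold. The count of keratins higher in cKO, 0 as reported, was 1 with quantile normalization, 1 with the length and GC correction (with or without the block) and 0 to 1 when 1 library was left out. Of all genes corrected, 2.55% were higher without the block and 4.4% with it. No share over all genes was computed for quantile normalization, the unfiltered fit or the fits without 1 library. With no filter, 4 keratins did not overlap between the groups (*Krt18* above, *Krt90*, *Krt4* and *Krt12* below), against 1 among those tested. Of all 28254 genes then kept, 2.59% did not overlap above and 4.29% below. The log2 ratio of the summed keratins ranged from -0.35 to -0.02 when 1 library was left out. The difference of the type I to type II ratio, cKO minus control, was 0.216 and ranged from 0.129 to 0.324. For single keratins, 247 of 266 alternative values stayed on the same side of the threshold, 13 passed it, 6 no longer did, and 0 called values changed sign. The median of all genes tested moved to -0.18 without control replicate 3 and to -0.16 without cKO replicate 2. The cause of these shifts was not tested.

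The replicate numbers are shared between the groups, but what pairs them is not stated, and the deviations of same-numbered libraries had correlations across genes of -0.08, 0.29 and 0.40 (numbers 1, 2 and 3). Under the replicate block, 4 keratins were lower at an unadjusted p below 0.05 (*Krt7*, *Krt6a*, *Krt75* and *Krt19*), against 6.62% of all genes tested. With the length and GC correction added to the block there were again 4, against 3.82% of all genes corrected. The unadjusted p of *Krt7* from limma was 0.00131 with the block and 0.00146 with block and correction.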
